A study of Mus musculus with 9 samples.

Results

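Insig1, Insig2, Srebf2, Scap, Stard4 and Tmem97 encode proteins that set the activity of SREBP2, the transcription factor of cholesterol supply, or that move sterol inside the cell and bear on the uptake of low-density lipoprotein. They were chosen by gene name among the protein-coding genes, and all 6 were found among the 56748 genes of the series. RNA-Seq libraries were compared from Hepa1-6 cells, a mouse hepatoma cell line, in 3 groups of 3 libraries each. The control cells received no drug according to the labels, whereas the methods of the study speak of a vehicle. The other groups received 37 µg/mL lefamulin or 37 µg/mL tiamulin for 2 days, and all cells grew in DMEM with fetal bovine serum and penicillin-streptomycin. Lefamulin and tiamulin are pleuromutilin antibiotics, which share the pleuromutilin core and differ in the side chain attached to it. Hepa1-6 is a single line, and no label says that the libraries of a group came from separate cultures, so p-values measure only the spread between these libraries, which may be technical.

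As background, SREBP2 is made as a precursor in the membrane of the endoplasmic reticulum, where it is bound to the sterol sensor SCAP. When membrane cholesterol is low, SCAP escorts the precursor to the Golgi, where proteases release the part that enters the nucleus and switches on the genes of cholesterol synthesis and lipoprotein uptake. When cholesterol is high, the INSIG proteins hold SCAP in the endoplasmic reticulum, and in liver cells this loop keeps synthesis and uptake matched to supply.

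Promoter windows are shown for Insig1, Srebf2 and Tmem97, which are known to be transcribed in response to sterol depletion, so that letters linked to SREBP control can be read beside their values. Each window runs from 250 bases before to 50 bases after the annotated start, in RefSeq sequence of build GRCm38.p6, and is written 5′ to 3′ on the strand of the gene. Capitals mark the letters TCACCCCA, a core of the sterol regulatory element, CCAAT or its reverse complement ATTGG, bound by NF-Y, and CACGTG, an E box. The windows lie at chr5:28071162-28071461 on the plus strand for Insig1, chr15:82147019-82147318 on the plus strand for Srebf2 and chr11:78550686-78550985 on the minus strand for Tmem97.
Insig1: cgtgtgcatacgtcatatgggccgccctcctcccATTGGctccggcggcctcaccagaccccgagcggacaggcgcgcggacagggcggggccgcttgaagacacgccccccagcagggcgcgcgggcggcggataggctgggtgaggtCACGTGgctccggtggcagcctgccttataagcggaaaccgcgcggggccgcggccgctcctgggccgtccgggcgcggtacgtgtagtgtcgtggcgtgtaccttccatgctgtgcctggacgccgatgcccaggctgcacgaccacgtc
Srebf2: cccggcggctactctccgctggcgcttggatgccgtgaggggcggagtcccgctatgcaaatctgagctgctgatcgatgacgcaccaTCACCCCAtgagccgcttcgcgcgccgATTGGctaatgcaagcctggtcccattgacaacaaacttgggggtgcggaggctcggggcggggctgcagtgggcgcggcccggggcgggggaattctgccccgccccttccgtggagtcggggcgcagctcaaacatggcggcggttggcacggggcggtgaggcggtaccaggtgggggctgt
Tmem97: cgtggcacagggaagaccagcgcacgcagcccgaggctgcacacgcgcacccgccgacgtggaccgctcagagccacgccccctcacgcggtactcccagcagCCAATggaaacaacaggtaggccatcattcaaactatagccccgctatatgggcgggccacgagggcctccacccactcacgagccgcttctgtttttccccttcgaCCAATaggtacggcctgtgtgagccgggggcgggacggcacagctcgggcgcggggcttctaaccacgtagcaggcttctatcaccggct

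The windows of 5 of the 6 members were in the RefSeq table, 8 windows in all. Both strands were searched, the 3 motifs do not overlap each other in the windows shown, and the motifs were chosen after the sequences had been seen. The sterol regulatory element core was found in the Srebf2 window, at position -162 from the start, and in 1.56% of all 32851 windows. A CCAAT box stood at -135 in Srebf2, at -216 in Insig1, and at -147 and -40 in Tmem97, and 37.4% of all windows held one. The E box was found in the Insig1 window, at -101, in both overlapping windows of Scap, and in 7.15% of all windows. Of the 3 Insig2 windows, 1 held the CCAAT box, at 3 places. A match of letters is a description and not a binding site, and no binding was measured in these cells.

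Total counts per library ran from 15568887 to 18008105, and 14510 genes passed the filter on low counts, all 6 members among them, with 948 to 7892 counts each per library. The hepatocyte markers Alb, at 144.7 to 226 FPKM, and Hnf4a, at 64.5 to 79.6 FPKM, were high in all 9 libraries, but Ttr had at most 2 counts and Apoa1 at most 6, so these 2 defining hepatocyte genes were near absent. The sum of 8 markers of blood, endothelial and mesenchymal cells was 6.45 to 7.30 FPKM in the controls, 8.47 to 13.04 with lefamulin and 11.8 to 16.5 with tiamulin. Most of it came from Cd68, at 6.09 to 15.7 FPKM, with Adgre1 at 0 counts and Acta2 at no more than 1 count in every library, and its part in the results below was not tested. Tiamulin library 2 stood apart: its counts differed from those of the other tiamulin libraries by a chi-square of 18.2 and 20.7 per degree of freedom, against 2.88 to 7.61 for every other pair within a group. Its deviation from the tiamulin mean rose with the GC content of the transcript (Spearman's rho 0.710 across 9584 genes, which are not independent replicates), while rho was -0.560 and -0.599 in tiamulin libraries 1 and 3. The controls also differed in this way, with rho of 0.523 in library 1, -0.512 in library 2 and 0.023 in library 3, and the lefamulin libraries lay between -0.159 and 0.195. Each deviation is taken from the mean of the library's own group, so the 3 deviations of a gene sum to 0. The rho values within a group therefore depend on each other and are not separate observations.

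Insig1 was the member with the largest change, higher with both drugs. Insig1 (ENSMUSG00000045294, deposited on chromosome 5 at 28276361 to 28283660) encodes the INSIG that is itself transcribed in response to SREBP, and so closes the loop that retains SCAP. Its level was 57.4, 57.2 and 57.3 CPM (counts scaled to library size by the TMM method) in the 3 control libraries, 96.7, 95.9 and 89.7 with lefamulin, and 73.4, 81.2 and 83.8 with tiamulin. Every lefamulin library lay above every tiamulin library, and every tiamulin library above every control. Against the controls, lefamulin raised Insig1 by 0.72 on the log2 scale (SE 0.067, 95% interval 0.57 to 0.86, adjusted p = 8.03e-06 by Benjamini-Hochberg over all genes in the quasi-likelihood test of edgeR), to 164% of control. Tiamulin raised it by 0.47 (SE 0.067, 95% interval 0.33 to 0.61, adjusted p = 0.000244), to 139% of control. Both calls were kept under all 20 alternative settings, with ranges of 0.68 to 0.75 for lefamulin and 0.43 to 0.53 for tiamulin. In bulk RNA, a change in the number of expressing cells and in RNA per cell cannot be told apart.

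Insig2 (ENSMUSG00000003721, chromosome 1 at 121232082 to 121260318, minus strand), the second INSIG and a partner of SCAP in the same membrane, showed overlapping groups. Its level was 61.6, 70.4 and 63.2 CPM in controls, 62.4, 65.8 and 58.1 with lefamulin, and 66.8, 61.6 and 75.1 with tiamulin. The differences of -0.07 (SE 0.084, 95% interval -0.25 to 0.11, adjusted p = 0.661) for lefamulin and 0.06 (SE 0.084, 95% interval -0.12 to 0.24, adjusted p = 0.683) for tiamulin did not pass the test. Each group held values inside the range of the others. The ratio of Insig1 to Insig2 FPKM within a library separated the groups: it was 0.912 to 1.05 in controls, 1.64 to 1.74 with lefamulin and 1.23 to 1.48 with tiamulin. The mRNA of Insig1 and Insig2 was therefore near parity per length in controls, and Insig1 exceeded Insig2 in every treated library. Set against Srebf2 in the same way, Insig1 was at 0.359 ± 0.0331 (SD, n = 3) in controls, 0.624 ± 0.0363 with lefamulin and 0.456 ± 0.0694 with tiamulin, where library 2, at 0.383, lay inside the control range of 0.329 to 0.394.

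**Figure D1:**
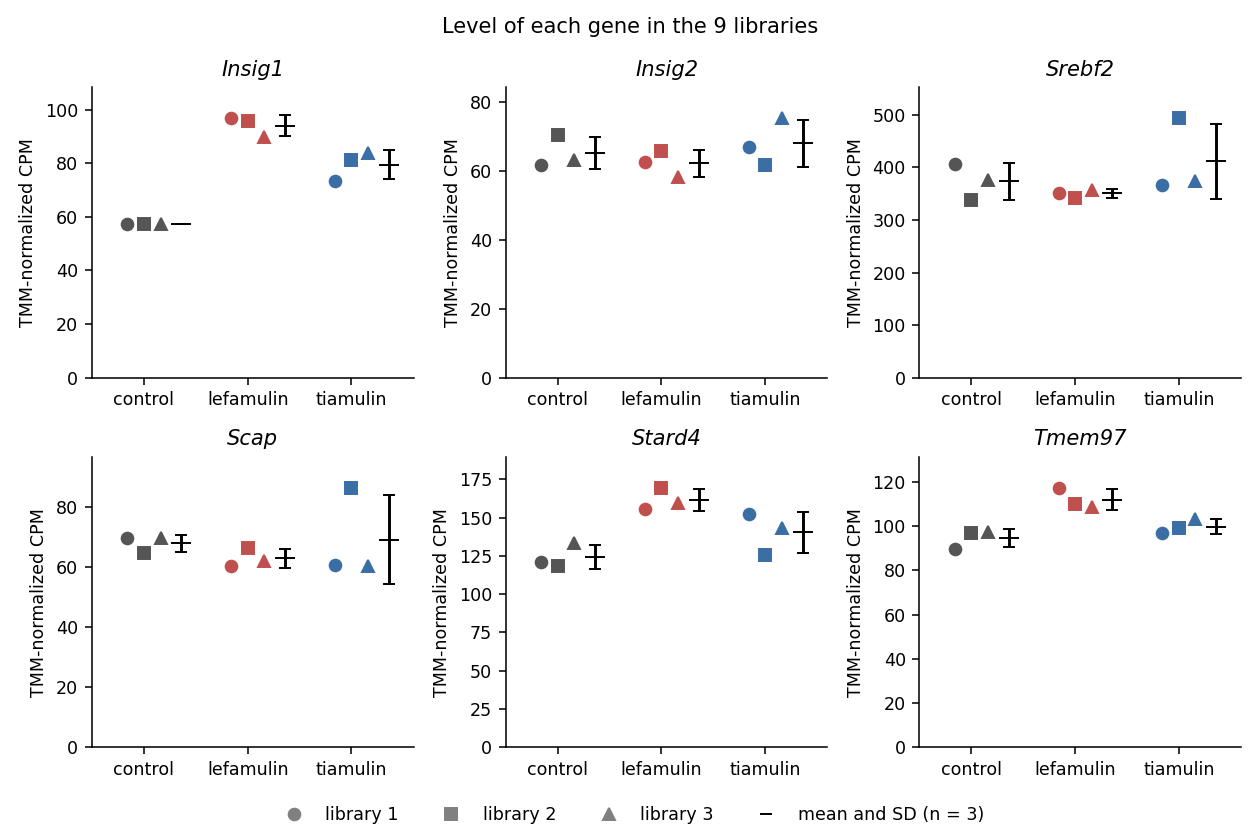
Level of each of the 6 genes in CPM (vertical axis, scaled by TMM) in the 3 libraries of each group, with points for libraries and bars for mean and SD. Insig1 separates into 3 levels, at means of 57.3, 79.5 and 94.1 CPM for control, tiamulin and lefamulin, while Insig2, Srebf2 and Scap overlap between control and drug.

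Srebf2 (ENSMUSG00000022463, chromosome 15 at 82031382 to 82089580), the gene of SREBP2, did not pass the test with either drug. It read 406, 337 and 376 CPM in controls, 352, 342 and 357 with lefamulin and 367, 493 and 374 with tiamulin. Tiamulin library 2 was the highest of all 9 libraries, and the other 2 tiamulin libraries lay inside the control range. The difference was -0.09 (SE 0.098, 95% interval -0.30 to 0.12, adjusted p = 0.605) with lefamulin and 0.14 (SE 0.098, 95% interval -0.07 to 0.35, adjusted p = 0.373) with tiamulin, and the tiamulin value became -0.010 without tiamulin library 2.

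Scap (ENSMUSG00000032485, chromosome 9 at 110162356 to 110214018), the sterol-sensing escort of SREBP2, had the same library apart. Its level was 69.7, 64.8 and 69.8 CPM in controls, 60.6, 66.6 and 62.0 with lefamulin, and 60.8, 86.5 and 60.5 with tiamulin. Tiamulin library 2 was again the highest of the 9, while tiamulin libraries 1 and 3 lay below every control library. The differences were -0.11 (SE 0.113, 95% interval -0.35 to 0.13, adjusted p = 0.575) with lefamulin and 0.02 (SE 0.113, 95% interval -0.22 to 0.26, adjusted p = 0.922) with tiamulin, which became -0.17 without tiamulin library 2. Srebf2 and Scap transcripts have 57.9% and 59.1% GC, the highest of the 6, and tiamulin library 2 read 0.28 and 0.34 above its group's mean on the log2 scale for them. Stard4, with the lowest GC content of the 6 at 43.9%, read -0.15 on the same scale in that library. With offsets for GC content and length the tiamulin differences were 0.09 for Srebf2 (adjusted p = 0.0797) and -0.033 for Scap (adjusted p = 0.729), so neither was called with or without the offsets. Within a library the ratio of Scap to Srebf2 FPKM was 0.177 ± 0.0101 (SD, n = 3) in controls, 0.174 ± 0.0123 with lefamulin and 0.162 ± 0.00676 with tiamulin.

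**Figure D2:**
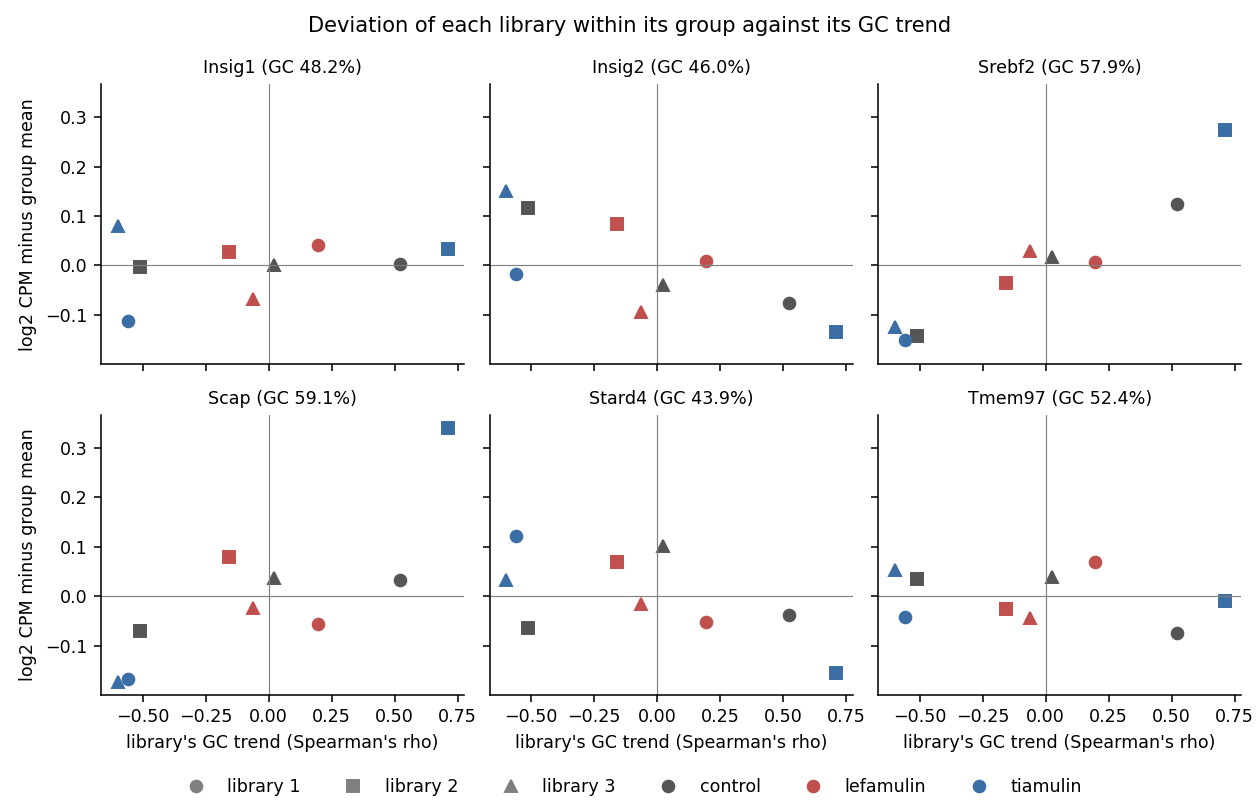
Deviation of each library from its group's mean (log2 CPM, vertical axis) against that library's GC trend (Spearman's rho over genes, horizontal axis), in 1 panel per gene, with colours for groups and shapes for library numbers. Tiamulin library 2, at a rho of 0.710, is the highest point for Srebf2 and Scap, at 0.28 and 0.34, and the lowest for Stard4, at -0.15.

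Stard4, whose soluble product carries cholesterol between membranes and which is a target of SREBP2, rose with lefamulin. Stard4 (ENSMUSG00000024378, chromosome 18 at 33332408 to 33346915, minus strand) was at 121, 119 and 133 CPM in controls, 156, 169 and 159.6 with lefamulin, and 152, 126 and 143 with tiamulin. All lefamulin libraries lay above all others, and tiamulin library 2, at 126, fell within the control range. Lefamulin raised Stard4 by 0.38 (SE 0.074, 95% interval 0.22 to 0.54, adjusted p = 0.00378), to 130.1% of control, and this call held under all 20 alternatives. For tiamulin the difference was 0.18 (SE 0.074, 95% interval 0.02 to 0.34, adjusted p = 0.126), which did not pass the test. Without tiamulin library 2 it was 0.25 (adjusted p = 0.00147), and with offsets for GC content and length 0.19 (adjusted p = 0.00587), whereas without tiamulin library 1 it was 0.11 (adjusted p = 0.384), so the tiamulin call depends on single libraries and on that setting.

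Tmem97 (ENSMUSG00000037278, chromosome 11 at 78432643 to 78441603, minus strand) encodes the sigma-2 receptor, a membrane protein of the endoplasmic reticulum that binds the lysosomal cholesterol exporter NPC1. Its level was 89.8, 96.9 and 97.1 CPM in controls, 117, 109.8 and 108 with lefamulin, and 96.8, 99.0 and 103 with tiamulin. The lefamulin libraries lay above all others, and tiamulin libraries overlapped the controls. Lefamulin raised Tmem97 by 0.24 (SE 0.061, 95% interval 0.11 to 0.37, adjusted p = 0.0177), to 118% of control. The call was lost under 5 of 20 alternatives, those with the replicate number as a block (adjusted p = 0.0542) or without control library 1 (0.0948) or 3 (0.0528) or lefamulin library 1 (0.0857) or 2 (0.0574). Over all 20 alternatives the value ran from 0.18 to 0.26. With tiamulin the difference was 0.08 (SE 0.061, 95% interval -0.05 to 0.21, adjusted p = 0.447), and it was 0.039 without control library 1 and 0.050 without tiamulin library 3.

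Of the 6 members, 3 were called with lefamulin, all higher, against 13.1% of all tested genes called in either direction, 7.09% higher and 6.00% lower. With tiamulin 1 member was called, higher, against 16.4% of all genes called, 9.08% higher and 7.34% lower. The median log2 difference of the members was 0.09 with lefamulin and 0.11 with tiamulin, beside medians of -0.0018 and 0.0034 over all tested genes. None of the 6 passed the study's joint thresholds of an adjusted p below 0.05 and a change of more than 1 on the log2 scale in edgeR's fit. Of all tested genes, 1.51% passed both with lefamulin and 1.78% with tiamulin. An unadjusted p below 0.05 was reached by 3 members with lefamulin and 2 with tiamulin. Among these, Tmem97 had the largest p with lefamulin, and 7.86% of all tested genes had a smaller one. With tiamulin it was Stard4, and 25.8% of all tested genes had a smaller p. Both comparisons use the same 3 controls, and their values are set side by side and not as independent support for one another.

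**Figure D3:**
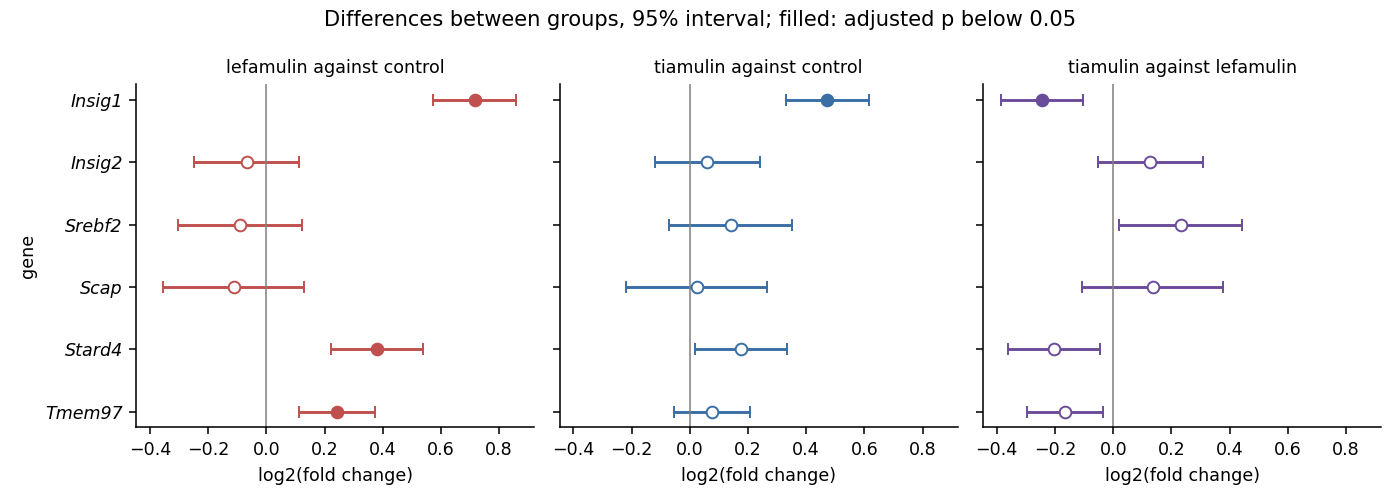
Log2 fold change of the 6 genes (horizontal axis) for lefamulin against control, tiamulin against control and tiamulin against lefamulin, with 95% intervals and filled points where the adjusted p is below 0.05. Insig1 is filled in all 3 panels, at 0.72, 0.47 and -0.24, and Stard4 and Tmem97 are filled in the lefamulin panel.

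The drugs were compared directly as 1 pair of compounds at 37 µg/mL and 2 days, equal by mass. Insig1 was lower with tiamulin than with lefamulin by 0.24 on the log2 scale (SE 0.066, 95% interval -0.38 to -0.10, adjusted p = 0.0486 over all genes), at 84.5% of the lefamulin level, and was lower in all 3 libraries. It was the 1 member called in this comparison, against 4.90% of all genes. The call was lost under 11 of 20 alternatives, among them those without any 1 of the control or lefamulin libraries and without tiamulin library 1. Over all 20 alternatives the value ran from -0.28 to -0.19 and the adjusted p from 0.00386 to 0.181. For the other members the test did not pass, which does not show that the drugs act alike. The interval was -0.36 to -0.05 for Stard4 and -0.30 to -0.03 for Tmem97, both lower with tiamulin, and 0.02 to 0.44 for Srebf2, higher with tiamulin. The Srebf2 difference of 0.23 was 0.081 without tiamulin library 2 (adjusted p = 0.426) and 0.089 with offsets for GC content and length (adjusted p = 0.119). The Stard4 difference of -0.20 was -0.13 without tiamulin library 2 (adjusted p = 0.157), and the Tmem97 difference of -0.17 was -0.092 with the offsets (adjusted p = 0.217). It was -0.05 to 0.31 for Insig2 and -0.11 to 0.38 for Scap. Leaving out 1 library moved the Insig2 difference of 0.13 to between 0.049 (without tiamulin library 3) and 0.19 (without tiamulin library 2), with 0.082 without lefamulin library 3. The adjusted p was 0.130 for Stard4, 0.136 for Tmem97, 0.192 for Srebf2, 0.405 for Insig2 and 0.524 for Scap.

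Compared per length, as FPKM, Tmem97 and Srebf2 were the most abundant members and Scap the least. Control means were 68.5 ± 3.002 for Tmem97, 51.7 ± 4.75 for Srebf2, 22.1 ± 1.37 for Stard4, 18.6 ± 1.36 for Insig2, 18.4 ± 0.0305 for Insig1 and 9.11 ± 0.374 for Scap (SD, n = 3). Insig1 and Insig2 did not differ beyond their spread in the controls, and the other neighbours in this order did not overlap. With lefamulin Insig1 was at 30.2 ± 1.22 and Stard4 at 28.7 ± 1.26, with overlapping ranges, and both lay above Insig2 at 17.8 ± 1.10. With tiamulin Insig1 was at 25.6 ± 1.799 and Stard4 at 25.0 ± 2.29, also overlapping, above Insig2 at 19.4 ± 1.89. Among all tested genes, Srebf2 had a mean CPM above 97.3% of them and Insig2, the lowest, above 73.2%.

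**Figure D4:**
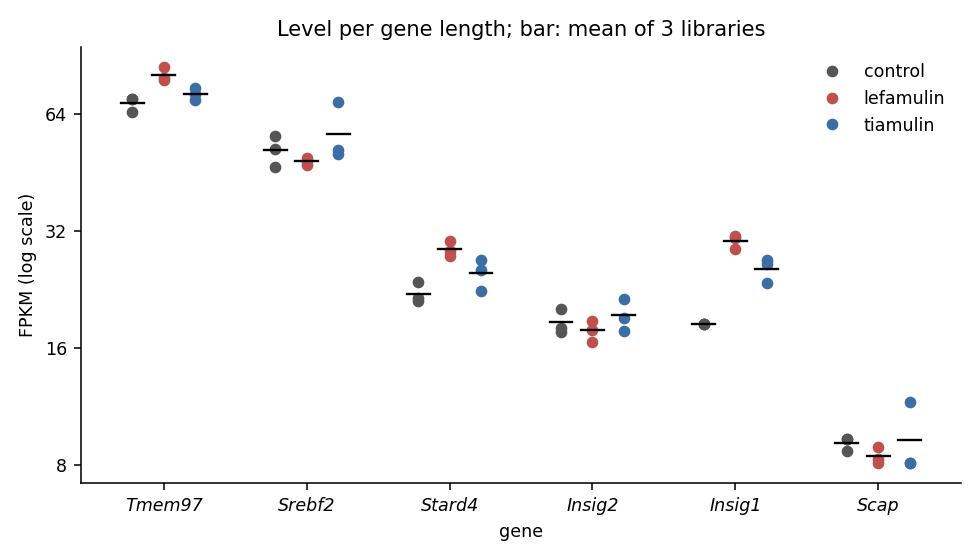
FPKM, a level per transcript length, of the 6 genes on a log axis (vertical) in the libraries of the 3 groups. Insig1 lies beside Insig2 in the controls, at 18.4 and 18.6, and beside Stard4 in both drug groups.

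The genes whose log2 CPM followed a member most closely over the 9 libraries were ranked by Pearson's r, as a description, since the libraries differ by group and by GC trend. For Insig1 the closest genes included Fth1 (r 0.988) and Pmm1 (0.985). Srebf2 was followed by Osbpl7 (0.995), Fbrs (0.992) and Sympk (0.990), and Scap by Rnf40 (0.972), Slx4 (0.971) and Zfp526 (0.969). Without tiamulin library 2 these r, in the same order, were 0.977, 0.973 and 0.972 for Srebf2 and 0.887, 0.976 and 0.912 for Scap. For Stard4 the closest genes were Msmo1 (0.983), an enzyme of cholesterol synthesis, Chuk (0.957) and Dr1 (0.948), and for Tmem97 Rab5c (0.983), Adtrp (0.956) and Dhps (0.948). Insig2 had the lowest leading value, with Mynn (0.923), and Tmem41b (0.892) was also among its closest genes. Among the members themselves, r was 0.810 for Insig1 and Stard4, 0.868 for Insig1 and Tmem97, 0.774 for Stard4 and Tmem97, and 0.846 for Srebf2 and Scap, whose r was 0.360 without tiamulin library 2, the highest library for both; the first 3 were 0.910, 0.898 and 0.783 without it. In every other pair r over the 9 libraries was negative, from -0.52 for Scap and Stard4 to -0.092 for Insig1 and Srebf2. Without tiamulin library 2 these pairs ran from -0.64 for Insig1 and Scap to -0.085 for Insig1 and Insig2. In that setting r was -0.43 for Insig1 and Srebf2.

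Of 15 listed genes whose products move or cleave SREBP, 2 rose and 3 fell with lefamulin, where 13.1% of all tested genes were called, and 1 rose and 1 fell with tiamulin, where 16.4% were, with list medians of 0.045 and 0.0065. Srebf1, the paralog that favours fatty acid genes, fell with both, by 0.56 (adjusted p = 0.0114) and 0.46 (0.0249). Sec24a, a cargo-binding subunit of the COPII coat that carries SCAP to the Golgi, rose by 0.27 (0.0165) and 0.26 (0.0133). Its paralog Sec24b fell with lefamulin, by 0.29 (0.00346), and read -0.09 (0.331) with tiamulin, while Spring1, a cofactor of the SREBP protease, rose with lefamulin by 0.38 (0.00746) and read 0.21 (0.0957) with tiamulin. With lefamulin 3 were called without control library 1 or 3 or lefamulin library 2, where 1146, 993 and 995 of all genes were called. The highest lefamulin count was 7, as without tiamulin library 2 (3708 of all genes). With tiamulin the count was 0 without tiamulin library 3 (2139 of all genes). It was 1 without control library 3 (1462) or tiamulin library 1 (1933), and 6 without tiamulin library 2 (3433). Offsets for GC content and length gave 6 (3870), and those offsets without tiamulin library 2 gave 8 (3970). These counts depend on single libraries and on the setting, and the calls over all genes moved in the same fits.

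Of 13 listed ubiquitin ligases and partners at the endoplasmic reticulum, which degrade INSIG and HMG-CoA reductase, 1 rose and 2 fell with each drug, with medians of 0.011 and 0.022, where 13.1% and 16.4% of all tested genes were called. Rnf145, a sterol-responsive ligase, fell by 0.32 (adjusted p = 0.00281) and 0.19 (0.0403), and Vcp, which extracts ubiquitinated proteins from the membrane, fell by 0.22 (0.0300) and 0.34 (0.00139). Ube2g2, an E2 enzyme, rose with lefamulin by 0.23 (0.0357) and read 0.17 (0.102) with tiamulin. With lefamulin 1 gene was called in place of 3 without control library 3 or lefamulin library 1, 2 or 3. Over all genes, 993, 1155, 995 and 1132 were called in those fits in place of 1900. With tiamulin 1 was called under 10 of the 20 alternatives, among them those without control library 2 or 3, any 1 lefamulin library or tiamulin library 1. In the fits named, 1462 to 2062 of all genes were called in place of 2383. The offsets without tiamulin library 2 called 5, with 3970 over all genes.

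The 20 enzymes of cholesterol synthesis, most of them SREBP2 targets, were mostly higher with both drugs. With lefamulin 19 were higher and none lower, with a median of 0.51, and with tiamulin 16 were higher, with a median of 0.40, where 7.09% and 9.08% of all tested genes were called higher. Mvd rose by 1.05 (adjusted p = 2.07e-05) and 1.13 (7.48e-06), Acat2 by 0.83 (5.43e-06) and 0.82 (4.11e-06), Lss by 0.82 (4.40e-06) and 0.68 (1.75e-05), and Dhcr7 by 0.69 (2.14e-05) and 0.74 (8.45e-06). These enzymes ranged from 0.26 to 1.05 with lefamulin and from 0.12 to 1.13 with tiamulin. Insig1, at 0.72 and 0.47, and Stard4, at 0.38 and 0.18, lay within both ranges. Tmem97 (0.24 and 0.08), Insig2 (-0.07 and 0.06) and Scap (-0.11 and 0.02) lay below both. Srebf2 lay below the range with lefamulin, at -0.09, and within it with tiamulin, at 0.14. The list had been chosen with earlier results of these libraries known.

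Of 17 genes of cholesterol movement and storage, 6 rose and 1 fell with lefamulin and 10 rose and none fell with tiamulin, with medians of 0.14 and 0.26, where 13.1% and 16.4% of all tested genes were called. The lefamulin count fell from 7 to 4 without control library 3 or lefamulin library 1, where 993 and 1155 of all genes were called in place of 1900. The tiamulin count ran from 8 to 10 over the alternatives. Soat2, which esterifies cholesterol, rose by 1.15 (adjusted p = 0.00166) and 1.28 (0.000505), Scarb2, a lysosomal membrane protein, by 0.62 (0.000533) and 0.60 (0.000544), and Npc2, which hands cholesterol to NPC1, by 0.41 (0.00140) and 0.53 (0.000135). Npc1 rose with tiamulin by 0.53 (2.21e-05) and read 0.11 (0.242) with lefamulin.

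Of 14 tested genes of lipoprotein uptake, none was called with lefamulin in edgeR's fit, where 1 had an unadjusted p below 0.05 and 13.1% of all tested genes were called. DESeq2 called 1, with 1922 over all genes in place of 1900. The fit of control and lefamulin alone and that without tiamulin library 2 called 2 (3510 and 3708 over all genes), GC and length offsets 3 (3424), and those offsets without tiamulin library 2 called 5 (4148). With tiamulin, where 16.4% of all genes were called, 1 rose, Vldlr, a receptor of triglyceride-rich lipoproteins, by 0.57 (adjusted p = 0.000233), and it read 0.25 (0.0537) with lefamulin. The tiamulin count was 2 without tiamulin library 2 or 3, 3 without a filter and 4 with the offsets, where 3433, 2139, 2652 and 3870 of all genes were called. Ap2s1 and Ap2a1, subunits of the clathrin adaptor, read -0.23 (0.0598) and 0.29 (0.106) with tiamulin, and Scarb1, the receptor of high-density lipoprotein, 0.22 (0.0690). With lefamulin these 3 read -0.06 (0.638), 0.12 (0.572) and 0.02 (0.926).

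**Figure D5:**
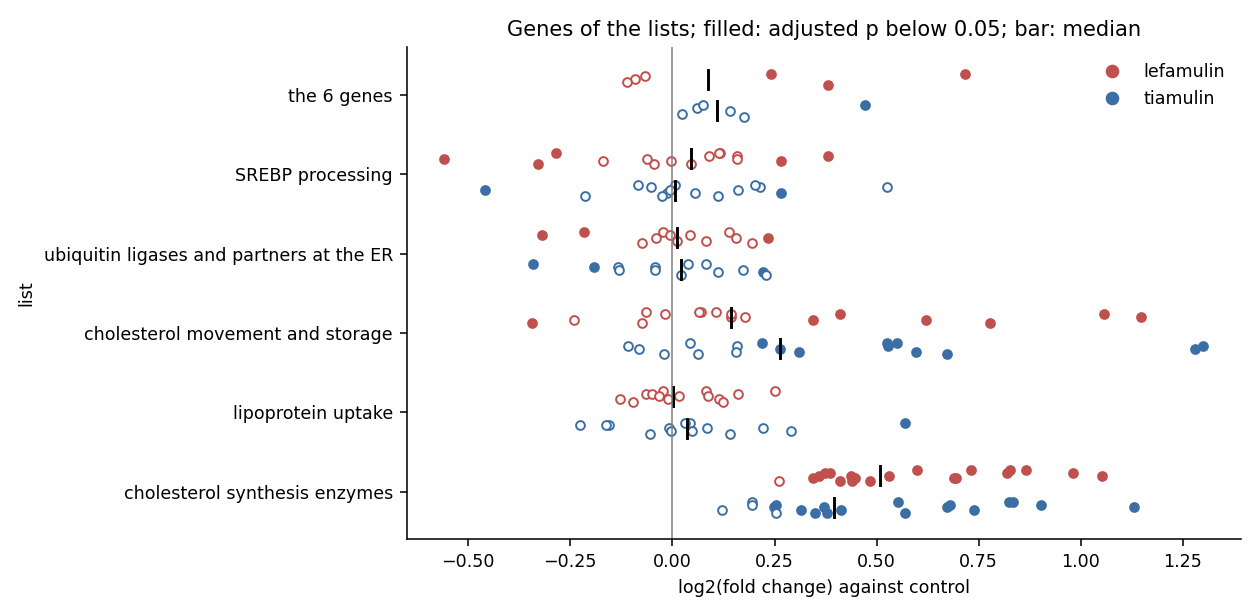
Log2 fold change against control (horizontal axis) of each tested gene of the 5 gene lists and of the 6 members, with lefamulin and tiamulin in separate colours. The cholesterol synthesis enzymes lie to the right of 0, at medians of 0.51 and 0.40, while the lipoprotein uptake genes lie around 0, at 0.0019 and 0.036.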

How the data were processed

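RNA-Seq was measured in 9 libraries, grouped by their titles. The authors deposited a table of raw counts for each gene and one of FPKM values, which are those counts divided by gene length and library total. The submitters' processing notes name CASAVA 1.8, fastp, HISAT2 2.0.5, featureCounts 1.5.0-p3, DESeq2 1.20.0 and mm10; the strand setting and annotation are not given in the sources used here, so overlapping genes could share reads. Of 52088 nuclear genes, 1487 (2.85%) have the start and end of GRCm38, none of the 6 members among them; positions are as deposited, and promoters are located in GRCm38.p6.

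Counts were fitted with edgeR 4.0.16 (R 4.3.3): filterByExpr (minimum count 10), TMM, 1 quasi-likelihood fit of the 3 groups without covariates, Benjamini-Hochberg adjustment over 14510 genes, called at an adjusted p below 0.05. Levels were log2 CPM with a prior count of 2. Alternatives used DESeq2 1.42.0, limma 3.58.1 on log2(FPKM + 1) and log2(FPKM + 0.1), GC and length offsets, a replicate block and other filters. GC content came from the longest GENCODE transcript of each gene. The edgeR fit was also run on simulated counts with 200 changed genes, and the outcome is not given here. Named were the 6 members, up to 4 genes per list with the smallest adjusted p against control, and the 3 genes most like each member; correlations without tiamulin library 2 were added after seeing the data; 3 genes that this rule names are not reported here. The members and lists were chosen with earlier results of these data known. Total counts per library were 15568887 to 18008105.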

Additional observations from a re-analysis of the deposited data

Results flagged for a closer look

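Insig1 differed between the drugs in the direct comparison, with a log2 difference of -0.24 for tiamulin against lefamulin (adjusted p = 0.0486 in edgeR's quasi-likelihood test). Groups of 3 libraries were not tested for outlying samples.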

How the results depend on the processing

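The lefamulin and tiamulin changes of Insig1 and the lefamulin change of Stard4 kept their calls under all 20 alternatives, and 2 to 3 members were called with lefamulin throughout. With tiamulin, 2 members were called in place of 1 under GC and length offsets, under those offsets with the replicate block, and under the offsets without tiamulin library 2, an alternative chosen after seeing the data; leaving out 1 library gave 1 to 2. Between the drugs, 2 were called in place of 1 without a filter, with the offsets, and with the offsets without tiamulin library 2, and 0 with the replicate block, with limma at either pseudocount and with the 2 groups alone; leaving out 1 library gave 0 to 1. Without a filter Srebf2 was called (0.24, adjusted p = 0.00796), with the offsets Stard4 (-0.16, 0.0400), and with the offsets without tiamulin library 2 Insig2 (0.21, 0.0198). Scap with tiamulin against control became -0.033 under the offsets, -0.036 under the offsets with the block, -0.0099 without control library 2, -0.17 without tiamulin library 2 and -0.082 under the offsets without that library; against lefamulin it became -0.033, -0.034, -0.056 without tiamulin library 2 and -0.080. Leaving out 1 library in turn, for tiamulin against control, gave -0.17 to 0.11 for Scap, -0.010 (without tiamulin library 2) to 0.22 for Srebf2 and -0.019 (without tiamulin library 3) to 0.13 for Insig2, and gave -0.056 to 0.22 for Scap against lefamulin. For lefamulin against control it gave -0.16 (without control library 2) to -0.027 (without control library 1) for Srebf2 and -0.11 to -0.0059 (without control library 2) for Insig2, and the offsets gave -0.00077 for Srebf2 and -0.00091 for Scap. Srebf2 between the drugs ran from 0.081 (without tiamulin library 2) to 0.31 when 1 library was left out, and was 0.089 with the offsets and 0.065 with the offsets without tiamulin library 2. The cause of these changes was not tested. The replicate block gave the Insig1 difference between drugs an adjusted p of 0.121. No label says that libraries of the same number belong together. Same-number correlations of deviations from the group mean ran from -0.51 to 0.043, and 1 of 9 libraries correlated best with its own number. Those deviations also hold the GC trends of the libraries, so the correlations cannot decide whether same-number libraries share a batch. Over all genes, 1900 were called with lefamulin (993 to 4148 over the alternatives), 2383 with tiamulin (1462 to 3970) and 711 between the drugs (204 to 1835).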

Other observations

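Between the drugs, 3 of the 17 genes of cholesterol movement and storage were higher with tiamulin than with lefamulin in edgeR's fit, 2 to 4 over the alternatives, where 4.90% of all tested genes were called in either direction. They were Npc1, by 0.42 on the log2 scale (SE 0.056, adjusted p = 0.00104), Gramd1a, a sterol carrier at contacts of the endoplasmic reticulum with the plasma membrane, by 0.61 (SE 0.108, adjusted p = 0.00564), and Osbpl5, by 0.41 (SE 0.095, adjusted p = 0.0269). Against control, Osbpl5 fell with lefamulin by 0.34 (adjusted p = 0.0285) and read 0.06 (0.712) with tiamulin. Gramd1a read -0.07 (0.752) with lefamulin and rose with tiamulin by 0.55 (0.00287). Of the 20 cholesterol synthesis enzymes, 1 was called, Hsd17b7, at 0.73 with lefamulin (adjusted p = 1.48e-05) and 0.19 with tiamulin (0.0855), a difference of -0.54 (SE 0.072, adjusted p = 0.00104); over the alternatives 1 to 6 of these enzymes were called, 4 without tiamulin library 2, 2 without tiamulin library 3 and 6 with GC and length offsets. Vldlr was the 1 gene of lipoprotein uptake called, 0.32 higher with tiamulin (SE 0.080, adjusted p = 0.0350), and none was called under 11 of the 20 alternatives, among them the replicate block, both limma fits, the fit of the 2 groups alone and those without control library 2 or 3, any 1 lefamulin library or tiamulin library 1 or 3. These 5 genes were named after their values had been seen.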
